A study of Mus musculus with 6 samples.

Results

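10 genes of the heat shock response were followed in ileal epithelium with and without Ogt: Hsf1, Hspa1a, Hspa1b, Hspa8, Dnajb1, Hsph1, Hspb1, Hsp90aa1, Hspd1 and Hspe1. They were found by Ensembl ID among the 22274 genes listed, and all 10 members were among the 14005 genes with enough counts to be tested. RNA was sequenced from intestinal epithelial cells of mouse ileum in 2 groups of 3 libraries. Knockout mice carried floxed Ogt together with Olfm4-CreER, a tamoxifen-dependent recombinase under the control of a crypt stem cell gene. Control mice are labelled with the floxed gene only, and whether they carried or received anything else in place of the driver is not stated. Both groups fall under the same protocol, with tamoxifen on 3 days at 2 months of age and collection on day 10. The driver acts in stem cells, so the epithelium sampled at that time can hold cells that descend from recombined stem cells and cells that do not. Nothing in the labels ties each library to an animal of its own, and p-values then measure only the spread between these samples, which may be technical.

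Ogt, which encodes the enzyme that attaches O-linked N-acetylglucosamine to proteins, stood at 140, 127 and 128 CPM (counts scaled to library size) in the control libraries. In the knockout libraries it stood at 48.5, 43.0 and 36.0 CPM, a log2 fold change of -1.63 ± 0.13 (± SE here and below, adjusted p = 0.00121). All 8 general epithelial markers were detected and 0 of them passed the edgeR test (3 had an unadjusted p under 0.05, and DESeq2 called 1), with a summed level of 16239 to 20229.9 CPM in control and 14823 to 17759 CPM in knockout libraries (Krt8 was the most abundant). Of 5 enterocyte markers, 3 were lower (Slc10a2, Fabp2 and Alpi). Transcripts of other cells were present in both groups: the summed level of 5 smooth muscle genes reached 846 to 1964 CPM in control and 749 to 1206 CPM in knockout libraries. One library stood apart in Paneth cell transcripts, with a sum over 7 genes of 225 CPM in control 2 against at least 1209 CPM in the 5 other libraries. The fibroblast genes Col1a1 and Col1a2 and the skeletal actin gene Acta1 were higher, Mptx1 was the 1 changed Paneth cell gene, and 0 genes of the lymphocyte, plasma cell, myeloid, endothelial, neural and erythroid lists passed by edgeR, at an unadjusted p under 0.05 or by DESeq2. Myh1, a skeletal myosin gene, had 0 counts. Each library held between 14389429 and 18076479 estimated counts.

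Heat shock proteins are chaperones: they bind unfolded or newly made proteins, keep them from aggregating and help them fold. HSF1 is the transcription factor that raises their genes under heat and other protein stress, and it does so by binding as a trimer to inverted repeats of the bases GAA. The cytosolic machine is built from HSP70, which binds exposed stretches of a client, J-domain proteins that deliver clients to it, exchange factors such as HSP110 that release them, and HSP90, which finishes the folding of kinases and receptors. Small heat shock proteins hold unfolded clients without ATP, and HSP60 with its lid HSP10 forms the folding chamber of the mitochondrial matrix. The intestinal epithelium renews itself within days and makes these proteins without heat as well.

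Of the 10 genes, Hsp90aa1 was higher and Dnajb1 was lower in knockout libraries, and the other 8 did not pass the test. The changed members thus made up 2 of 10, close to the share of all tested genes that changed, which was 18.7% (9.33% higher and 9.37% lower). The median log2 fold change of the members was 0.12 against -0.05 over all tested genes, with 6 positive and 4 negative values. Control and knockout levels did not overlap for 2 of the 10 members, and for 39.8% of all tested genes. The 2 genes that changed moved in opposite directions, and no common movement of the members was seen. The number of changed members went from 2 to 1 without control 2, control 3, knockout 1 or knockout 3, and to 5 without control 1. The count of all changed genes moved the same way. From 2619 it went to 1683, 1198, 1654 and 1009 in those settings in that order, and to 3304 without control 1.

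**Figure D1:**
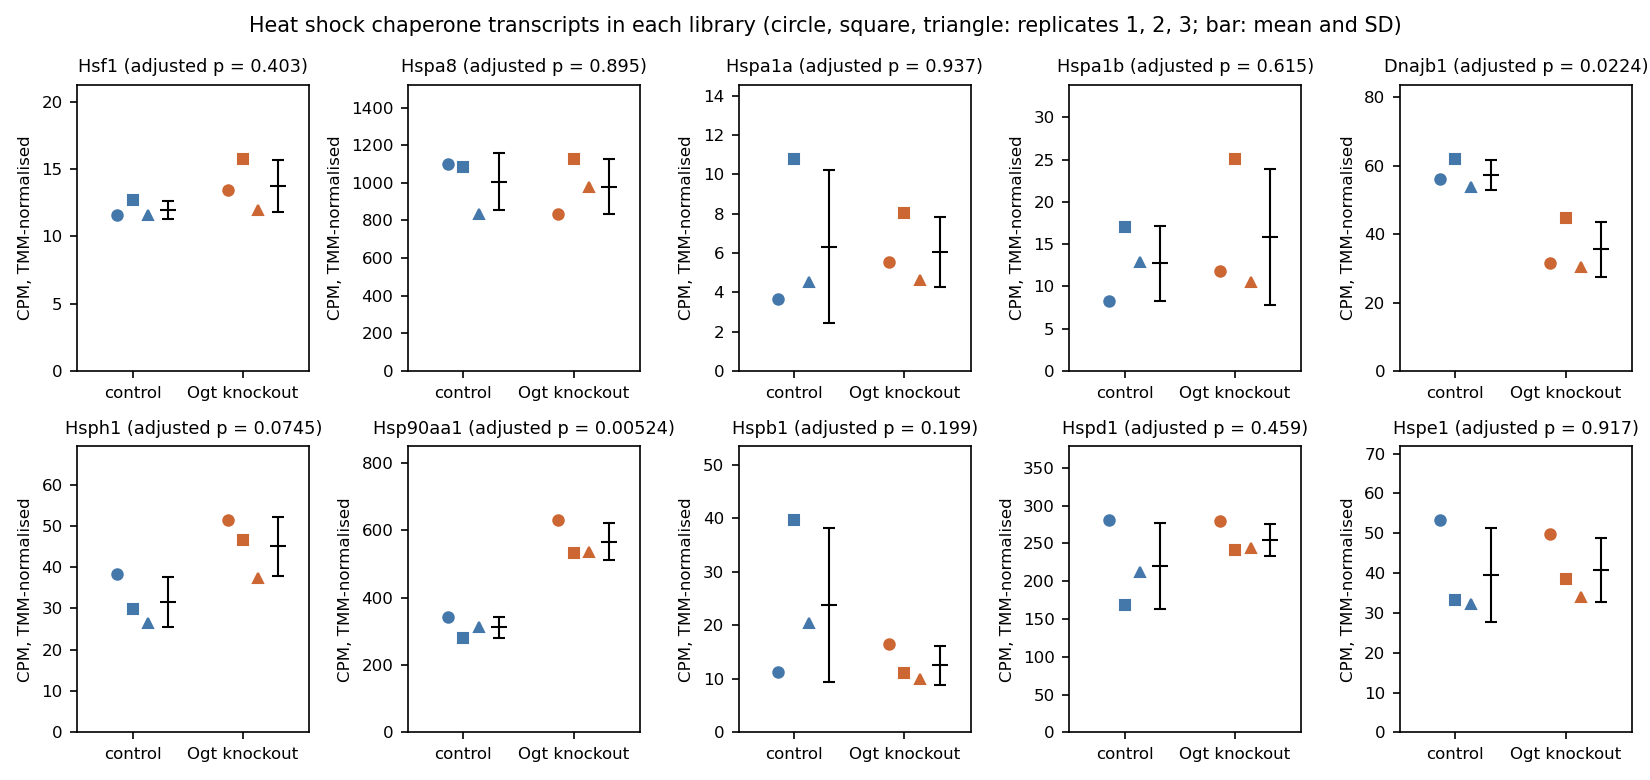
Level of each member in each library (CPM on a linear axis, 3 control and 3 knockout libraries), with 1 panel per gene. Bars mark group means and SD. Hsp90aa1 lies higher and Dnajb1 lower in every knockout library than in every control library, and the groups overlap for the other 8 genes.

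The regulator itself, Hsf1, was expressed at a modest level. It stood at 11.6, 12.7 and 11.6 CPM in control libraries and at 13.5, 15.8 and 12.0 CPM in knockout libraries. The lowest knockout value lay inside the control range, and the log2 fold change of 0.20 ± 0.15 did not pass the test (adjusted p = 0.403). Among other genes of the HSF family and its binding proteins, 4 of 6 could be tested and 0 passed by edgeR, at an unadjusted p under 0.05 or by DESeq2. Hsf2, a related factor that can pair with HSF1, went from 4.93 ± 0.375 to 3.42 ± 0.682 CPM (± SD, n = 3; adjusted p = 0.16). Hsbp1, a small protein that binds HSF1 trimers, went from 66.8 ± 7.89 to 55.1 ± 6.44 CPM (adjusted p = 0.167). HSF1 is controlled largely as a protein, by chaperone binding, phosphorylation and movement to the nucleus, and transcript levels do not measure that.

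Hsp90aa1, the stress-responsive cytosolic HSP90, was the member with the largest supported difference. It stood at 343, 282 and 312 CPM in control libraries and at 630, 532 and 535 CPM in knockout libraries. Every knockout value lay above every control value. The mean went from 312 ± 30.8 to 566 ± 55.3 CPM (± SD, n = 3), a 1.81-fold increase (log2 fold change 0.86 ± 0.13, adjusted p = 0.00524). It passed the test in all 19 alternative analyses, with log2 fold changes of 0.77 to 0.99. Its counts were whole numbers in all 6 libraries, as counts are where no reads are split between similar genes.

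Hsp90ab1, the constitutive cytosolic HSP90, did not pass the test. Its level was 705, 730 and 628 CPM in control and 706, 717 and 561 CPM in knockout libraries (-0.06 ± 0.14, adjusted p = 0.807). Both proteins have the same chaperone function, and the longest reading frames of their reference transcripts were 76.76% identical. On the per-length scale of FPKM, Hsp90aa1 ran at 0.415, 0.330 and 0.418 times Hsp90ab1 in control libraries and at 0.758, 0.623 and 0.791 times in knockout libraries. The ratio was higher in each knockout library than in each control library. The exact two-sided permutation test gave p = 0.1, the smallest value that 3 against 3 libraries allow, or 0.5 after adjustment over 5 such sums and ratios.

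Among the 19 other genes of the HSP90 machine, 6 rose and 1 fell, against 9.33% and 9.37% of all tested genes. Cdc37, which hands kinases to HSP90, rose from 76.0 ± 3.27 to 115 ± 5.33 CPM (0.60 ± 0.09, adjusted p = 0.00571). Ahsa1, the activator of the HSP90 ATPase, rose (0.49), as did Cacybp (0.74), Nudc (0.66), Ttc4 (0.63) and Sugt1 (0.60), genes of proteins that bind HSP90 or work beside it. Fkbp8, a membrane-anchored immunophilin of the outer mitochondrial surface, fell from 251 ± 6.0 to 157 ± 6.98 CPM (-0.67 ± 0.10, adjusted p = 0.00443). The transcripts of Stip1, the adaptor between HSP70 and HSP90 (log2 fold change 0.01), of Ptges3, the p23 cochaperone (0.25), and of Fkbp4 (-0.08) did not pass the test. The count of 6 went up to 10 without control 1 and down to 4 without control 3 or knockout 3 and to 3 without knockout 2.

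**Figure D2:**
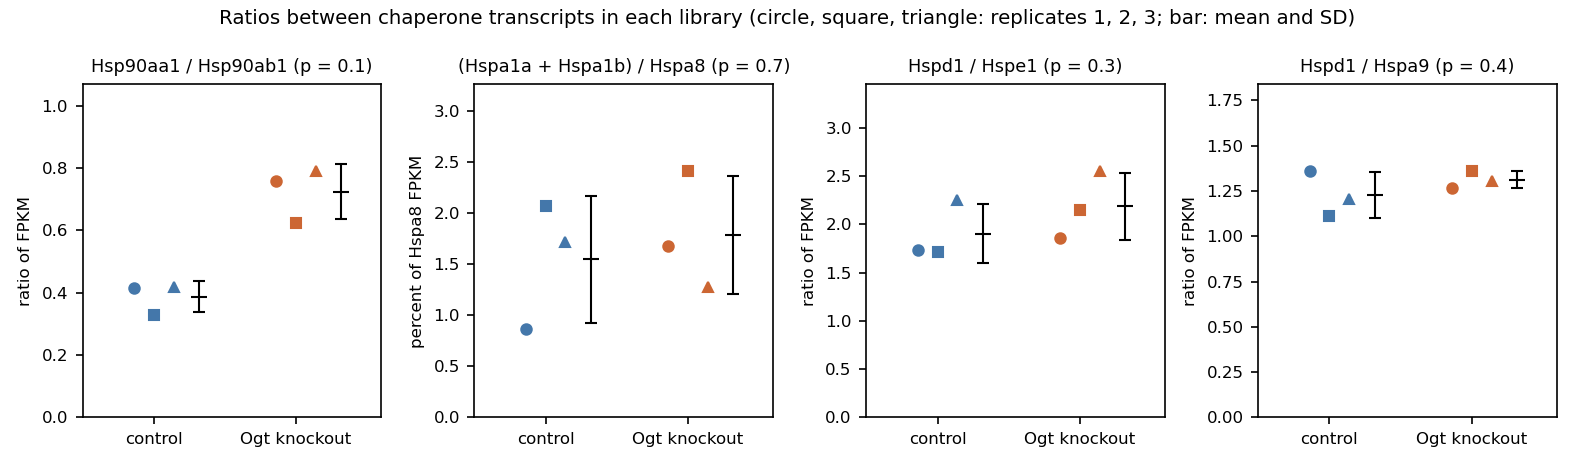
Ratios between chaperone transcripts in each library, all from FPKM, with 3 control and 3 knockout libraries per panel. Bars mark group means and SD. The ratio of Hsp90aa1 to Hsp90ab1 lies at 0.330 to 0.418 in control and at 0.623 to 0.791 in knockout libraries, and the groups overlap in the other panels.

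Dnajb1, the main heat-inducible J-domain partner of HSP70 and also a protein that holds HSF1 in check, was lower after loss of Ogt. It stood at 56.2, 62.0 and 53.7 CPM in control libraries and at 31.5, 44.7 and 30.4 CPM in knockout libraries. Every knockout library lay below every control library, with knockout 2 nearest to them. The mean went from 57.3 ± 4.29 to 35.5 ± 7.94 CPM (± SD, n = 3), to 0.620 times the control level (-0.69 ± 0.16, adjusted p = 0.0224). The direction was kept in all 19 alternatives and the call in 15 of them. The call ended without control 2 (adjusted p = 0.0728), control 3 (0.0634), knockout 1 (0.0708) or knockout 3 (0.0893).

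Immediate early genes, known to respond to cell handling, were measured beside Dnajb1. The summed level of 20 immediate early genes was 1856 to 2243 CPM in control and 1062 to 1391 CPM in knockout libraries. Of these 20, 4 fell (Jun, Egr1, Klf4 and Klf6), 1 rose (Fosl1) and 15 did not pass the test, against 9.37% lower and 9.33% higher among all tested genes. Klf4, the most abundant, went from 463 to 263 CPM, and Klf4 and Klf6 made up much of the sum. Their part in the lower Dnajb1 level was not tested.

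Of 17 other J-domain genes, listed apart from the mitochondrial ones, 6 rose and 2 fell, against 9.33% and 9.37% of all tested genes. Dnaja1, the abundant farnesylated partner of HSP70, was at 246, 255 and 219 CPM in control and at 394, 409 and 349 CPM in knockout libraries (0.68 ± 0.12, adjusted p = 0.00807). Dnajc2, which works with HSP70 at the ribosome exit, rose from 30.3 ± 6.06 to 58.2 ± 3.11 CPM (0.94 ± 0.15, adjusted p = 0.00585). Dnajb6, a strong suppressor of protein aggregation, rose from 106 ± 6.15 to 163 ± 17.1 CPM (0.62), and Dnajc9 (0.57), Dnajc8 (0.54) and Dnajc13 (0.45) rose as well. Dnajb2 (-0.72) and Dnajc5 (-0.37), both best known from neurons, fell. The count of genes that rose lay between 4 and 6 when libraries were left out (4 without control 2, knockout 2 or knockout 3). The count that fell was 0 without control 3, knockout 2 or knockout 3, and 1 without control 2 or knockout 1.

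Hspa8, the constitutive cytosolic HSP70, was the most abundant member. It stood at 1101, 1085 and 832 CPM in control libraries and at 833, 1128 and 980 CPM in knockout libraries. The groups covered nearly the same range (-0.04 ± 0.17, adjusted p = 0.895). With each library left out the value lay between -0.15 and 0.08. Small nucleolar RNA genes lie inside Hspa8, and their reads, if captured, could be counted with it.

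Hspa1a and Hspa1b encode the inducible HSP70 and are nearly identical. Their longest reading frames matched at 1918 of 1926 aligned bases (99.58%), and the 250 bases before their start sites matched at 247 of 250. These upstream stretches from RefSeq (GRCm38.p6, both on the minus strand) are shown to let the likeness be seen. They span chr17:34972157-34972406 for Hspa1a and chr17:34959239-34959488 for Hspa1b, and capitals mark an inverted pair of GAA units with 2 bases between them:
Hspa1a: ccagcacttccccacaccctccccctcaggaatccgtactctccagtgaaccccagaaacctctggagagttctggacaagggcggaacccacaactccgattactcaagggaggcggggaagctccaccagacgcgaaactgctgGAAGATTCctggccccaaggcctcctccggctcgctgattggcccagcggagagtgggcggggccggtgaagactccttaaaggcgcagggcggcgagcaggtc
Hspa1b: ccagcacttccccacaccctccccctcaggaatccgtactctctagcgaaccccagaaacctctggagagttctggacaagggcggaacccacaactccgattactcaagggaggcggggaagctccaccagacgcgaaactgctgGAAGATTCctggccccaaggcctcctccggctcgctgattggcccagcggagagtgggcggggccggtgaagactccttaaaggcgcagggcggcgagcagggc

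Reads of 2 such genes cannot be placed with certainty, and the deposited estimated counts of both were fractional in 6 of 6 libraries. Hspa1a stood at 3.65, 10.8 and 4.53 CPM in control and at 5.53, 8.06 and 4.60 CPM in knockout libraries (-0.06 ± 0.43, adjusted p = 0.937). Hspa1b stood at 8.22, 17.0 and 12.9 CPM in control and at 11.8, 25.1 and 10.6 CPM in knockout libraries (0.32 ± 0.40, adjusted p = 0.615). For both genes the second library of each group was the highest and the groups overlapped. Hspa1a went to 0.60 (adjusted p = 0.243) without control 2 and to -0.32 (adjusted p = 0.70) without knockout 2. Hspa1b went to 0.61 (adjusted p = 0.396) without control 2 and to -0.19 (adjusted p = 0.724) without knockout 2, so neither has a direction that holds without these libraries. The split between the copies is uncertain, and their sum does not depend on it. The sum stood at 11.9, 27.8 and 17.5 CPM in control and at 17.3, 33.2 and 15.2 CPM in knockout libraries, and tested as 1 gene it gave 0.20 ± 0.39 (adjusted p = 0.757). Per length, the inducible pair together reached 0.860%, 2.07% and 1.72% of the Hspa8 level in control and 1.67%, 2.41% and 1.28% in knockout libraries (exact two-sided permutation p = 0.7, also 0.7 after adjustment over the 5 sums and ratios). The inducible HSP70 thus stayed far below the constitutive one in all 6 libraries.

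These copies were among the least repeatable transcripts. The within-group SD of log2 CPM of Hspa1a and Hspa1b lay at the 94.7 and 94.1 percentiles of all tested genes, and that of Hspb1 at the 96.2 percentile. Hsp90aa1 lay at the 26.4 percentile. A difference of the size seen for Hsp90aa1 would therefore have been harder to detect for the inducible HSP70 genes and for Hspb1.

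Of 7 other cytosolic HSP70 and HSP110 genes, 1 fell and 0 rose by edgeR or DESeq2, with 3 at an unadjusted p under 0.05. Over all tested genes, 9.37% fell and 9.33% rose by edgeR. Hspa12a, a distant HSP70 relative, fell from 83.1 ± 3.72 to 49.3 ± 11.9 CPM (-0.76 ± 0.16, adjusted p = 0.0181). That call ended in both FPKM analyses and without control 2, control 3, knockout 2 or knockout 3 (adjusted p up to 0.149). Hspa4, an abundant HSP110, stood at 185 ± 13.6 and 194 ± 9.58 CPM (adjusted p = 0.677). Hspa4l, its close relative, stood at 52.3 ± 7.83 and 67.4 ± 4.49 CPM without overlap (0.36 ± 0.13, adjusted p = 0.0822), and it passed without control 1, with library size alone and with the replicate block.

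Among the 9 exchange and partner factors of HSP70, 5 rose and 0 fell by edgeR or DESeq2 (6 had an unadjusted p under 0.05). Their median log2 fold change was 0.55. By edgeR, 9.33% of all tested genes were higher and 9.37% lower. Stub1, the ubiquitin ligase CHIP that tags clients of HSP70 and HSP90 for degradation, rose from 52.5, 47.1 and 46.3 CPM to 107, 120 and 90.8 CPM (1.12 ± 0.12, adjusted p = 0.00234). St13, which stabilises HSP70 bound to a client, rose from 81.6 ± 3.50 to 129 ± 16.2 CPM (0.66 ± 0.12, adjusted p = 0.00945). The exchange factors Bag1 (0.55), Bag5 (0.64) and Hspbp1 (0.61) rose as well. Bag3, the exchange factor best known as a target of HSF1, did not pass the adjusted test (-0.45 ± 0.17, unadjusted p = 0.0330, adjusted p = 0.112). It stood at 36.9, 37.0 and 32.0 CPM in control and at 30.1, 28.2 and 19.5 CPM in knockout libraries, without overlap. The count of 5 became 3 without control 3, knockout 2 or knockout 3. Stub1 overlaps Jmjd8 and its counts were fractional in all 6 libraries. Whether the overlap accounts for the fractions was not tested.

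Hsph1 encodes HSP105, a heat-inducible HSP110 that releases ADP from HSP70. It stood at 38.4, 29.8 and 26.5 CPM in control libraries and at 51.4, 46.6 and 37.3 CPM in knockout libraries. Only the lowest knockout and the highest control library overlapped, and by about 1 CPM. The log2 fold change of 0.51 ± 0.17 did not pass the adjusted test (unadjusted p = 0.0176, adjusted p = 0.0745). It passed with the replicate number as a block (0.52, adjusted p = 0.0144), with scaling by library size alone (0.64, 0.0336), with DESeq2 (0.53, 0.0433), on log2(FPKM + 1) (0.55, 0.0491) and without control 1 (0.72, 0.0132).

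The sequence around the start of Hsph1 holds GAA units in alternating directions, the letters of an HSF1 site, whose binding was not measured here. Both stretches come from RefSeq (GRCm38.p6, minus strand) and are shown because they hold a pair of units before the start site and a run of 3 units after it. The pair lies at chr5:149636351-149636380 and the run at chr5:149636287-149636304, with the units in capitals:
Hsph1, before the start: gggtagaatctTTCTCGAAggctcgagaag
Hsph1, after the start: cagaTTCTGGAAAGTTCt

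Hspd1 and Hspe1 encode HSP60 and HSP10, the chamber and the lid of the mitochondrial chaperonin, and lie head to head on chromosome 1 with a shared control region. Hspd1 stood at 281, 168 and 212 CPM in control and at 279, 241 and 244 CPM in knockout libraries (0.21 ± 0.18, adjusted p = 0.459). Hspe1 stood at 53.3, 33.3 and 32.1 CPM in control and at 49.7, 38.5 and 34.0 CPM in knockout libraries (0.04 ± 0.23, adjusted p = 0.917). For both genes control 1 and knockout 1 were the highest of their groups. Both values turned on single libraries. Hspd1 was at 0.47 (adjusted p = 0.0392) without control 1 and at 0.08 (adjusted p = 0.788) without control 2, and with each other library left out it lay between these and did not pass. Hspe1 was at 0.36 (adjusted p = 0.143) without control 1 and at -0.13 (adjusted p = 0.774) without knockout 1, and it did not pass with any 1 library left out. Their gene models overlap on opposite strands in an annotation of an older build, and the libraries do not mark the strand. The deposited counts of both genes were whole in all 6 libraries, as counts are where no reads are split. How reads of the shared part were counted is not known.

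Per length, Hspd1 ran at 1.74, 1.71 and 2.25 times Hspe1 in control and at 1.86, 2.14 and 2.55 times in knockout libraries (exact two-sided permutation p = 0.3, adjusted 0.625). Against Hspa9, the HSP70 of the same compartment, Hspd1 ran at 1.36, 1.11 and 1.21 times in control and at 1.27, 1.36 and 1.30 times in knockout libraries (exact two-sided permutation p = 0.4, adjusted 0.625). The proportions of these chaperones to each other overlapped between the groups. The shared region of the pair holds 4 GAA units in alternating directions, shown on the strand of Hspe1 (RefSeq, GRCm38.p6, chr1:55088053-55088082) with the run in capitals:
Hspd1 and Hspe1: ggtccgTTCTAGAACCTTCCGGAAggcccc

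The wider mitochondrial group did contain changed genes, with 6 of 17 higher and 2 lower, against 9.33% and 9.37% of all tested genes. Lonp1, the matrix protease that degrades oxidised and misfolded proteins, was at 38.2, 33.3 and 37.3 CPM in control and at 96.3, 99.6 and 107 CPM in knockout libraries (1.48 ± 0.10, adjusted p = 0.00109). Htra2, a protease of the intermembrane space, rose from 10.2 ± 0.383 to 21.5 ± 1.91 CPM (1.08 ± 0.13, adjusted p = 0.00288). Its gene model overlaps those of other genes and its counts were fractional in all 6 libraries. Clpx, the unfoldase of the matrix ClpXP protease, rose from 57.8 ± 3.54 to 95.4 ± 6.45 CPM (0.72). The HSP70 partners Dnaja3 (0.68) and Grpel1 (0.50) and the mitochondrial HSP90 Trap1 (0.47) rose, while Hspa9 itself stood at 0.16 ± 0.13 (adjusted p = 0.446). Clpb, a disaggregase of the intermembrane space, fell from 11.9 ± 0.999 to 5.45 ± 0.693 CPM (-1.13 ± 0.18, adjusted p = 0.00594), and Afg3l2, an inner membrane protease subunit, fell (-0.42). The count of higher genes was 4 without knockout 2 or knockout 3, and that of lower genes was 1 without control 2, control 3, knockout 2 or knockout 3.

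Hspb1 encodes HSP27, a small heat shock protein that also steadies actin filaments. It stood at 11.4, 39.7 and 20.5 CPM in control libraries and at 16.6, 11.1 and 9.89 CPM in knockout libraries. The control values spread over 3.48-fold and control 1 lay inside the knockout range. The log2 fold change of -0.93 ± 0.45 did not pass the test (adjusted p = 0.199). Without control 1 it reached -1.23 (adjusted p = 0.0448), and without control 2 it was -0.32 (adjusted p = 0.535).

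Several other small heat shock genes, among them Hspb6, Hspb7 and Cryab, are known for high levels in muscle. The 5 of this list that could be tested were Hspb6, Hspb7, Hspb8, Cryab and Hspb11, the last listed only by its symbol. All 5 had negative log2 fold changes, with a median of -0.79. By edgeR 0 passed, where 9.37% of all tested genes were lower (2 had an unadjusted p under 0.05, and DESeq2 called 2 lower, Hspb6 and Hspb7). Hspb6 went from 18.1 ± 8.10 to 8.52 ± 0.724 CPM (-1.09 ± 0.33, adjusted p = 0.0611) and Hspb7 from 10.7 ± 6.28 to 4.55 ± 0.821 CPM (-1.24 ± 0.46, adjusted p = 0.102). The sum of the 5 was 31.6, 80.0 and 68.5 CPM in control and 32.2, 30.4 and 33.2 CPM in knockout libraries. The sum of 5 smooth muscle genes (Acta2, Myh11, Des, Tagln and Actg2) was 846, 1964 and 1940 CPM in control and 749, 1090 and 1206 CPM in knockout libraries. They belong to a wider muscle list, in which only the skeletal actin gene Acta1 passed by edgeR, and it went the other way. Acta1 rose from 35.0 ± 21.7 to 415 ± 218 CPM (3.57 ± 0.68, adjusted p = 0.0193). Control 1 was the lowest control library in both sums and in Hspb1. The knockout libraries did not share such an order. Knockout 1 was the lowest of them in the smooth muscle sum and the highest in Hspb1, and knockout 2 was the lowest in the small heat shock sum. In tissue samples fewer cells of a type and less RNA per cell cannot be told apart, and the part of muscle transcripts in these values was not tested. Without control 1, the lowest control library in both sums, 4 of the 5 small heat shock genes were lower. All changed genes then numbered 3304, against 2619 with all libraries.

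The stretch before the start site of Hspb1 (RefSeq, GRCm38.p6, plus strand, chr5:135887769-135887918) is shown because it holds 2 separate pairs of GAA units, in capitals:
Hspb1: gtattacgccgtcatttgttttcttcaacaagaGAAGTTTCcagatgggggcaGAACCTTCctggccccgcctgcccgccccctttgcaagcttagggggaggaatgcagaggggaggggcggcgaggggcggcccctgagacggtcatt

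On the per-length scale the members spanned a wide range of levels. Mean FPKM in control libraries was 419 for Hspa8, 101 for Hsp90aa1, 91.5 for Hspd1, 49.0 for Hspe1, 25.0 for Hspb1, 18.2 for Dnajb1, 8.38 for Hsph1, 6.02 for Hsf1, 4.32 for Hspa1b and 2.02 for Hspa1a. Neighbours in that order whose control libraries overlapped were Hsp90aa1 with Hspd1, Hspe1 with Hspb1, Hspb1 with Dnajb1, Hsf1 with Hspa1b and Hspa1b with Hspa1a. In knockout libraries Hsp90aa1 reached 198 ± 13.6 FPKM and no longer overlapped with Hspd1 at 118 ± 5.16 FPKM. Dnajb1 came down to 12.4 ± 2.83 FPKM and overlapped with Hsph1 at 12.7 ± 1.65 FPKM, from which it had been apart in control libraries. The order of the other members was the same in both groups.

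Across the 9 lists of pathway genes, which leave out the members, 98 of 104 genes could be tested. Of these, 29 were higher (29.6% against 9.33% of all tested genes) and 7 were lower (7.14% against 9.37%), with a median log2 fold change of 0.16. The lists were chosen with earlier results of these data known, and the shares were not matched for expression level. This contrast was therefore given no test. The J-domain, HSP90, chaperonin and mitochondrial lists held 6 increases each and the exchange factors 5, and the small heat shock, HSF, HSP70 and further stress-inducible lists held none by edgeR. The count of higher genes was 18 without knockout 2 and 19 without knockout 3, and 35 without control 1. The count of lower genes was 12 without control 1 or with the replicate block, 4 without control 2, and 3 without control 3, knockout 2 or knockout 3 and in both FPKM analyses, where 35 genes were higher. Gene models on the opposite strand overlap those of Dnaja1, Stub1, Fkbp8, Pfdn2, Htra2, Hspa12a and Hspb6, and the libraries do not mark the strand. Counts were fractional for Dnaja1, Stub1 and Htra2 in all 6 libraries and for Pfdn2 in 3 of them. They were whole for Fkbp8, Hspa12a and Hspb6. How reads shared by such pairs were counted is not known. The sum of 6 proliferation genes was 251 to 498 CPM in control and 423 to 607 CPM in knockout libraries, with 0 of 6 past the edgeR or DESeq2 threshold (1 at an unadjusted p under 0.05), and their part in these counts was not tested.

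The cytosolic chaperonin TRiC and prefoldin, which fold actin and tubulin, contributed 6 higher genes of 14 and, by edgeR or DESeq2, 0 lower ones (8 had an unadjusted p under 0.05). The shares over all tested genes were 9.33% higher and 9.37% lower. Pfdn2 rose from 15.4 ± 1.21 to 36.5 ± 4.18 CPM (1.24 ± 0.14, adjusted p = 0.00219) and Pfdn1 from 32.6 ± 3.05 to 64.7 ± 5.43 CPM (0.99 ± 0.11, adjusted p = 0.00261). Pfdn4 (0.94) and the TRiC subunits Cct8 (0.57), Cct3 (0.52) and Cct2 (0.47) rose too. The call of Cct2 ended without any 1 library other than control 1 (adjusted p up to 0.0728), and the count of 6 became 4 without control 3 or any 1 knockout library. Tcp1 (0.19), Cct4 (-0.18) and Cct7 (-0.03), subunits of the same ring, did not pass the test. Hikeshi, the importer of HSP70 to the nucleus, had a log2 fold change of -0.51 ± 0.16 (adjusted p = 0.057).

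**Figure D3:**
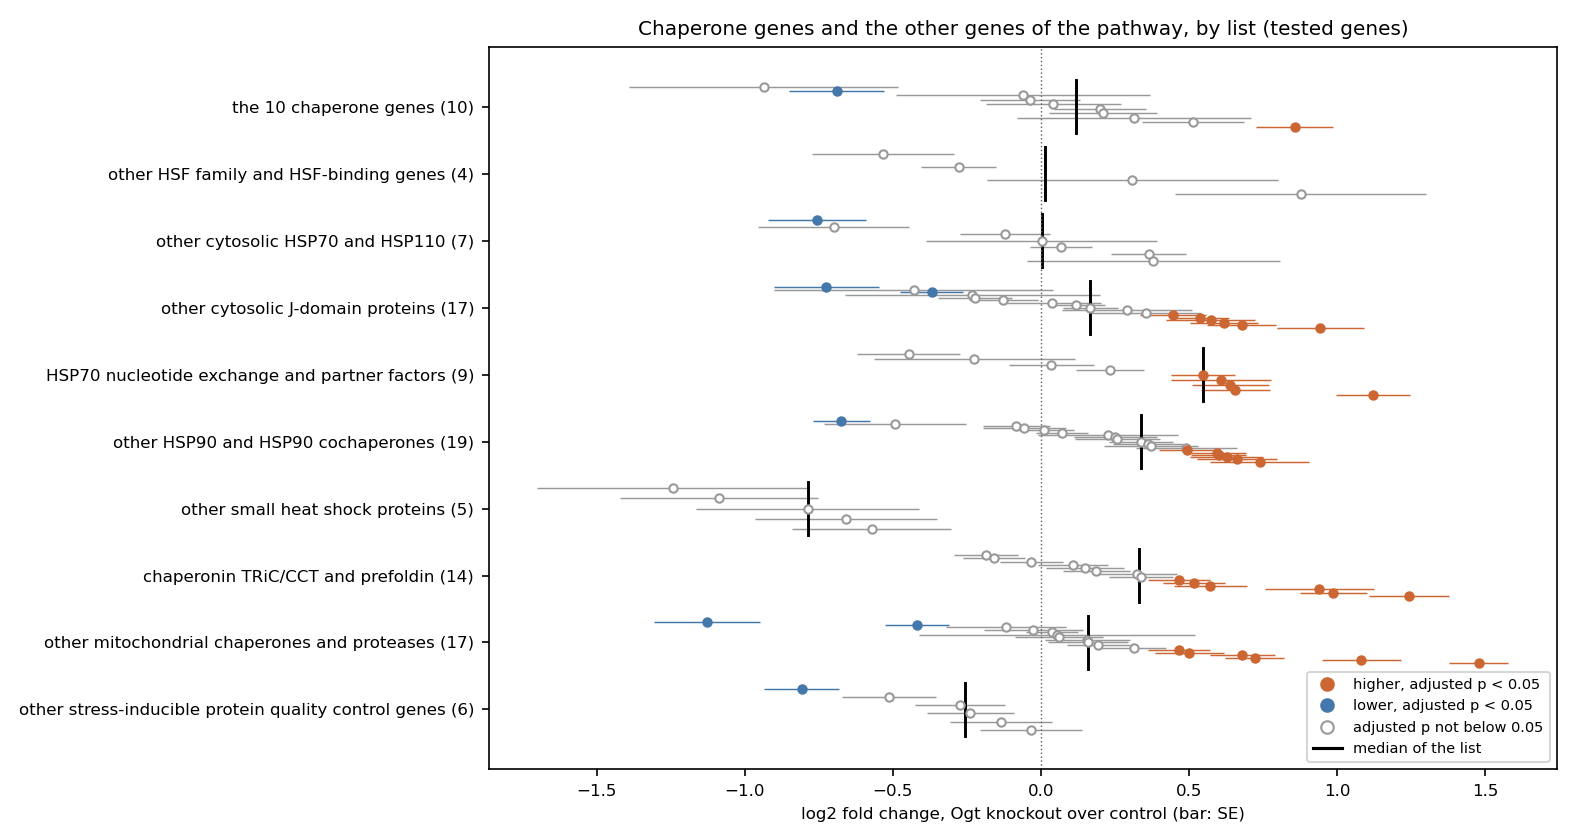
Log2 fold change (knockout minus control) of every tested gene of the members and of the 9 pathway lists, 1 point per gene with a bar of ± SE, filled points for genes that passed the test and a vertical bar at each list's median. Exchange factors lie mostly to the right with a median of 0.55, and the 5 small heat shock genes all lie to the left with a median of -0.79.

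The letters that HSF1 reads were searched in RefSeq windows from 250 bases before to 50 bases after each start site (GRCm38.p6). A pair of units was GAANNTTC or TTCNNGAA, and a run of 3 units was GAANNTTCNNGAA or TTCNNGAANNTTC, so that each run also holds overlapping pairs. Each pattern reads both strands, the pairs because they are their own reverse complement. A pair occurred in 15.1% of 32851 windows and a run in 0.603%. Per gene, as the members are counted, the shares were 17% and 0.662% of 27025 genes. Of the 10 members, 7 had a window, and Hsf1, Hspa8 and Hsp90aa1 had none in that table. A pair was found in 6 of the 7, and a run in Hsph1, Hspd1 and Hspe1. The Hspa1a and Hspa1b pairs began 104 bases before the start site, the Hspb1 pairs 117 and 97 bases before it, and the run of Hspe1 89 bases before it. Dnajb1, the member that fell, held neither pattern in its windows, which says only that these letters are not there. Hspd1 and Hspe1 share 1 run, and Hspa1a and Hspa1b are copies, so these matches are not independent of each other.

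**Figure D4:**
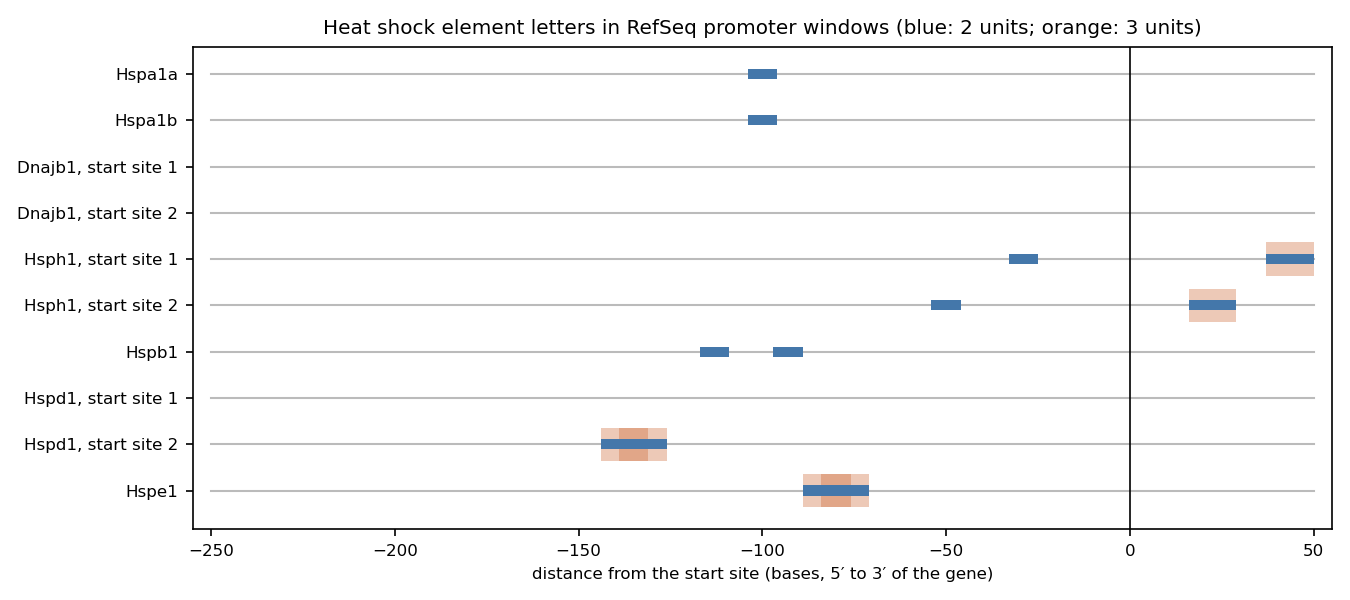
Position of GAA-unit patterns in the windows of the 7 members that have one, as distance in bases from the start site, with separate marks for pairs and runs of 3 units. Runs appear for Hsph1, Hspd1 and Hspe1, single pairs for Hspa1a and Hspa1b, and none for Dnajb1.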

How the data were processed

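The authors deposited 1 table with values per gene and library, namely estimated counts (expected counts) and FPKM, per the file headers. FPKM are the authors' values per length and library total. Libraries were made from Trizol RNA with the NEBNext Ultra RNA kit, per the labels' protocols, which does not mark the strand. The submitters' processing notes name GRCm39 and mm39, and no aligner, counter or annotation release is given in the sources used here. Between 7.68% and 8.09% of counts per library were not whole (tolerance 0.001) and all were rounded.

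Genes passed filterByExpr (minimum count 10, total 15), libraries were scaled by TMM, and the groups were compared with the robust quasi-likelihood test of edgeR 4.0.16 (R 4.3.3), with Benjamini-Hochberg adjustment over the 14005 tested genes and a threshold of 0.05. Rose and fell are used only for genes past it. CPM carry the TMM factors, and 3 counts equal 0.159 to 0.207 CPM. The test was also run on simulated data in which far fewer genes changed than here, which checks the code only. Alternatives were other scalings, DESeq2 1.42.0, limma 3.58.1 (voom, and log2 of FPKM + 0.1 or + 1), other count filters, removal of the 20 most abundant genes, unrounded counts, the replicate block, and each library left out. Sums and ratios were tested by exact permutation.

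Members and lists were chosen with earlier results of these data known. Named genes are the members, Ogt, per pathway list the 2 genes of smallest adjusted p and the most abundant, per marker list the most abundant, and the closest profiles. Further genes, among them Stip1, Ptges3, Fkbp4, Bag3, Tcp1, Cct4, Cct7 and the other changed list genes, were chosen after their values were seen. Of the named marker genes, those of lists without a result here are not described. Symbols follow GENCODE M21 for 22219 IDs, and that annotation, of an older build, gave gene overlaps and the transcripts behind the reading frames. A second row deposited under the symbol Hspe1, of another ID, had no counts and is no member. Some results that the rule for named genes gives are not reported here.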

Additional observations from a re-analysis of the deposited data

How the results depend on the processing

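The direction of Hsp90aa1 and Dnajb1 held in all 19 alternatives. The number of changed members ranged from 1 to 5 when each library was left out, and that of all changed genes from 1009 to 3304 (3304 without control 1, 1683 without control 2, 1198 without control 3, 1654, 1134 and 1009 without knockout 1, 2 and 3). It was 3 members with library size alone, DESeq2, log2(FPKM + 1) or the replicate block, each adding Hsph1. Over all genes, the median log2 fold change moved from -0.05 to 0.12 on log2(FPKM + 0.1) and to 0.09 with library size alone. Values on those scales are to be read against that median. Among members that did not pass the test, the sign changed in 8 of 18 alternatives for Hspa1a, 1 of 18 for Hspa1b, 6 of 19 for Hspa8 and 3 of 19 for Hspe1. The labels do not say that replicate numbers pair libraries. Correlations of deviations for the same number were 0.27, 0.25 and 0.084, of which the last is too low to count as pairing, though each library correlated best with its own number. As a hint only, the replicate block gave 3402 changed genes against 2619 and 3 changed members, with Hsp90aa1 at 0.86 and Dnajb1 at -0.71. Counts of lower genes in single lists were small and moved: 2 J-domain genes became 1 with DESeq2 size factors, library size alone or no count filter and 0 on FPKM, 2 mitochondrial genes became 1 with library size alone or on FPKM, and 0 small heat shock genes became 2 with DESeq2 and 1 with the block. With 3 libraries a group, the Hspa1a, Hspa1b and Hspb1 transcripts varied widely between libraries. The part of depth in that spread was not tested.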

Other observations

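Among 12190 genes, the profiles over the 6 libraries closest to that of Hsp90aa1 (smallest root mean square difference of log2 CPM relative to the control mean) were those of Dnajc11 (0.0211), Qrsl1 (0.0398) and Pde12 (0.0527), which encode mitochondrial proteins. Dnajc11 went from 36.7 to 65.9 CPM (0.84 ± 0.11, adjusted p = 0.00365). Among the profiles close to that of Dnajb1 were those of Oxld1 (0.0619) and Tctn1 (0.0824). These likenesses were selected from all genes and carry no test.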
